A study of Mus musculus with 2 samples.

Results

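The 10 genes described here, Aspm, Cdk5rap2, Wdr62, Mcph1, Cenpj, Stil, Cep152, Cep135, Nde1 and Cep63, were chosen by symbol as genes of microcephaly and the centrosome. All 10 were among the 43346 annotated genes of the deposited gene tables, and the transcript tables held 48 transcripts of them. Polyadenylated RNA longer than 200 nt was read in stranded pairs from mouse embryos of strain C57BL/6J, mixed-sex littermates at day 18, whose central nervous system was taken. The 2 libraries, replicates 1 and 2, form 1 group, with no mutant, treatment or second age, so the data give levels, isoforms and the spread between libraries. The labels do not say how many embryos went into each sample, and the dissected tissue was not divided into regions or cell types.

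Primary microcephaly is a small but largely well-formed brain at birth. Most of its known genes act at the centrosome, the pair of centrioles with surrounding material that organises the mitotic spindle. Neural progenitors lining the ventricles divide many times during cortical growth, and these divisions depend on centriole duplication, on spindle poles that hold together and on correct spindle orientation. By day 18 most cells of the mouse central nervous system are postmitotic neurons, with dividing progenitors near the ventricles.

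A total of 93979836 and 137012773 fragments were assigned to genes in replicates 1 and 2. Levels are given as TPM, a share of all transcripts that allows for their length. Values after ± are SDs, with n = 2 libraries in every case. Markers of neural tissue were present in both libraries, with the neuronal tubulin gene Tubb3 at 2581 ± 213 TPM and the radial glial gene Fabp7 at 1518 ± 120 TPM. The libraries stood apart in tissue from outside the nervous system. The 6 skeletal muscle markers summed to 13.0 TPM in replicate 1 and 478 in replicate 2, the 6 markers of cartilage and bone to 34.2 and 168, and the 6 of epidermis to 85.4 and 6.83. The 14 markers of cycling cells, all detected, summed to 330 and 350 TPM, and 13 of the 14 had a ratio above 1 in replicate 2 on the scaled count scale, with a median of 1.12-fold. Proliferating cells of the extra tissues could hold transcripts of the same genes, and their part in the levels below was not tested. In bulk tissue, fewer cells of a type and less RNA per cell cannot be told apart.

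All 10 genes were detected, that is, neither library gave a TPM under 1, beside 34.2% of all genes and 62.9% of protein-coding genes. Their median was 5.33 TPM, and 9 of the 10 lay below 17.7 TPM, the median of the 14816 detected genes. Levels spanned 12.4-fold, from Cep63 to Aspm. Each gene's SD was between 0.646% and 9.84% of its mean.

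**Figure D1:**
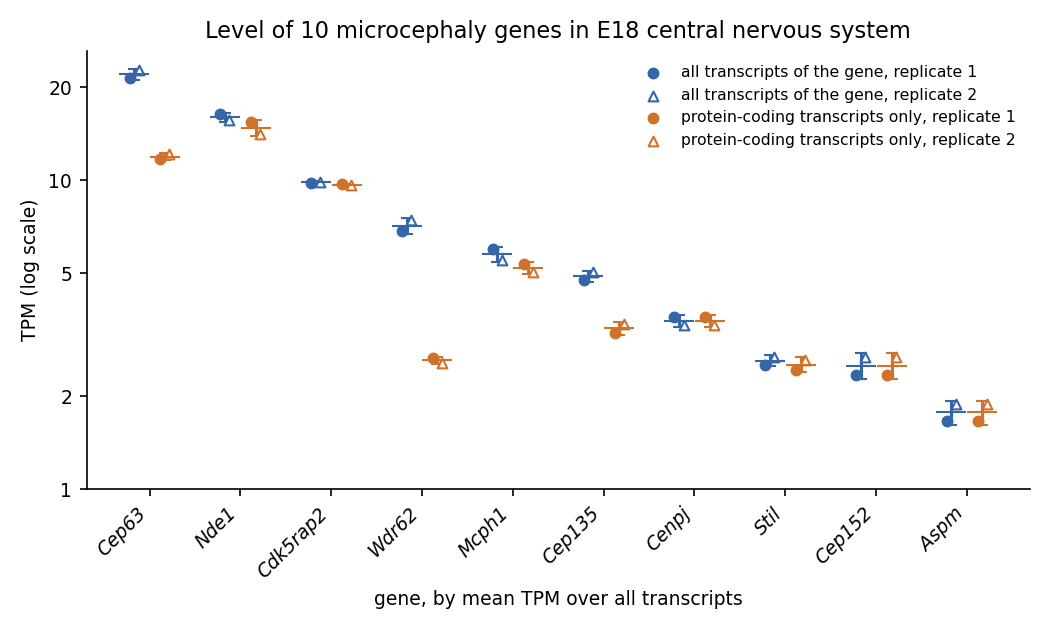
TPM (log axis) of each gene in replicate 1 (filled circles) and replicate 2 (open triangles), over all transcripts (blue) and over protein-coding transcripts only (orange); bars are means with SD, n = 2. Cep63 at 22.1 and Wdr62 at 7.14 TPM fall to 11.9 and 2.62 when only coding transcripts are counted, while Aspm stays lowest at 1.78.

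Aspm and Wdr62 encode proteins of the spindle pole, and Cdk5rap2 encodes a protein of the pericentriolar material that recruits the γ-tubulin complexes from which microtubules grow. Aspm (ENSMUSG00000033952, GRCm38 chromosome 1, 139454772 to 139494091, plus strand), the gene most often mutated in human primary microcephaly, was at 1.66 TPM in replicate 1 and 1.89 in replicate 2, or 1.78 ± 0.163. This was the lowest level of the 10 and lay above only 5.71% of detected genes. Wdr62 (ENSMUSG00000037020, chromosome 7, 30240138 to 30280419, minus strand) was at 6.84 and 7.43 TPM. Cdk5rap2 (ENSMUSG00000039298, chromosome 4, 70216856 to 70410443, minus strand) was at 9.81 and 9.90 TPM, or 9.86 ± 0.0636. The spindle pole genes thus differed among themselves by more than the spread between libraries, with no overlap of their ranges.

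Stil, Cenpj and Cep135 act in building the new centriole. Stil, the partner and substrate of the kinase Plk4, (ENSMUSG00000028718, chromosome 4, 115000159 to 115043196, plus strand) was at 2.53 and 2.68 TPM. Cenpj, which controls the growth of centriolar microtubules, (ENSMUSG00000064128, chromosome 14, 56526761 to 56575425, minus strand) was at 3.61 and 3.40 TPM. Cep135, which links the central cartwheel to the centriole wall, (ENSMUSG00000036403, chromosome 5, 76588698 to 76646466, plus strand) was at 4.75 and 5.04 TPM. Of their partners, Plk4, the kinase that starts duplication, was at 7.66 ± 0.552 TPM and the cartwheel gene Sass6 at 3.48 TPM in both libraries. The 5 genes of this assembly step thus lay between 2.61 and 7.66 TPM.

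Cep152 and Cep63 encode partner proteins that form a ring around the parent centriole and recruit Plk4. Cep152 (ENSMUSG00000068394, chromosome 2, 125563088 to 125625113, minus strand) was at 2.34 and 2.69 TPM, and Cep63 (ENSMUSG00000032534, chromosome 9, 102584588 to 102626534, minus strand) at 21.4 and 22.7 TPM. The partner genes were therefore at places 9 and 1 of the order. Cep192, the other scaffold for Plk4, stood between them at 8.06 ± 0.403 TPM.

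Mcph1 and Nde1 have other roles. Mcph1, which holds back chromosome condensation and acts in the DNA damage response, (ENSMUSG00000039842, chromosome 8, 18595131 to 18803189, plus strand) was at 5.98 and 5.53 TPM. Nde1, a regulator of the motor dynein that binds the lissencephaly protein Pafah1b1, (ENSMUSG00000022678, chromosome 16, 14163275 to 14192928, plus strand) was at 16.4 and 15.6 TPM. Nde1 was second only to Cep63 over all transcripts, and its partner Pafah1b1 reached 123 ± 3.40 TPM.

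In the order Cep63, Nde1, Cdk5rap2, Wdr62, Mcph1, Cep135, Cenpj, Stil, Cep152 and Aspm, the ranges of neighbours overlapped for 1 pair, Stil and Cep152, whose means differed by 1.04-fold. The annotation places a protein-coding gene on the opposite strand over part of 4 members, Anapc13 over Cep63, Marf1 over Nde1, Thap8 over Wdr62 and Angpt2 over Mcph1. No source used here says whether the deposited counts used the strand, so levels at these overlaps are uncertain. Ywhaq-ps3, a transcribed processed pseudogene, overlaps Cdk5rap2 on the same strand, and its part in the Cdk5rap2 level was not tested.

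Several members have a close relative whose level bears on how much of the family's RNA they make up. Ndel1, the relative of Nde1 and also a dynein regulator, was at 67.3 and 64.3 TPM, 4.12 times Nde1 in each library. Pde4dip, also known as myomegalin and related to Cdk5rap2, was at 41.1 ± 0.113 TPM, or 4.18 and 4.15 times Cdk5rap2. Mapkbp1 exceeded Wdr62 by 4.54 and 3.85 times, and Tsga10 exceeded Cep135 by 2.92 and 2.95 times. The Cep63 pair was the other way round. Deup1, which acts in the deuterosomes of multiciliated cells, was at 1.15 and 1.57 TPM and reached 0.0537 and 0.0692 times the level of Cep63.

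The surrounding pathway was broadly present. Of 87 other genes in 6 lists of centrosome, spindle, dynein and microcephaly genes, 85 were detected, with a median of 17.1 TPM. The 17 other genes of centriole duplication were all detected, led by the centrin genes Cetn3 at 126 ± 6.70 and Cetn2 at 36.2 ± 2.79 TPM, and lowest at Rttn with 3.17 ± 0.382. The 18 genes of the pericentriolar material had a median of 26.9 TPM and ran from Nedd1, a γ-tubulin adaptor, at 3.99 ± 0.481 to Odf2, an appendage protein gene, at 83.8 ± 1.29. In this group Akap9, a large γ-tubulin anchor, was at 53.2 ± 1.26 TPM, pericentrin (Pcnt) at 5.30 ± 0.283 and γ-tubulin itself (Tubg1) at 12.2 ± 0.0424. The 10 centriolar satellite genes had a median of 10.8 TPM, with Cep131 highest at 28.9 ± 0.750, Kiaa0753 next at 28.5 ± 0.856 and Cep290 lowest at 1.57 ± 0.198.

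Of the 17 spindle pole and mitosis genes, Ckap5, a microtubule polymerase, was highest at 71.3 ± 3.22 TPM, the kinesin gene Kif2a followed at 39.4 ± 0.552, and Hmmr was lowest at 3.20 ± 0.311. The 6 genes of dynein and its partners, Ndel1 and Pafah1b1 included, stood far higher, with a median of 210 TPM. Highest were Dynll1 at 734 ± 11.9 and the heavy chain Dync1h1 at 241 ± 10.3. Of 19 other microcephaly genes that could be matched, 17 were detected, with the condensin gene Ncapd2 at 78.7 ± 6.86 and Phc1 at 67.6 ± 4.2 TPM as the highest and Cdk6 at 1.61 ± 0.163 as the lowest detected. The exceptions were Knl1 at 0.85 and 1.02 TPM and Kif14 at 0.78 and 0.81, kinetochore and cytokinesis genes chosen here because they fell short. The 10 members thus had the lowest median of these 7 lists, 5.33 TPM against 9.71 to 210 in the other 6.

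**Figure D2:**
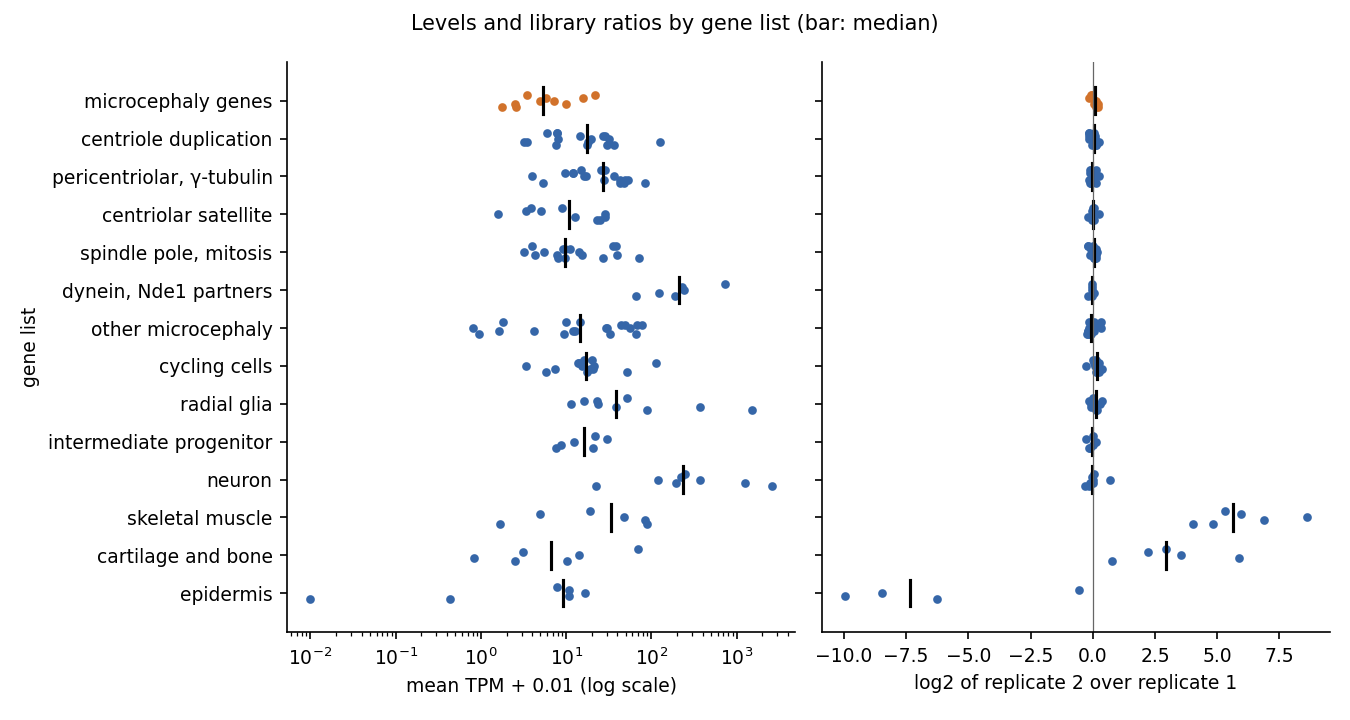
Left, mean TPM of every gene in each list (log axis, with 0.01 added); right, log2 ratio of replicate 2 over replicate 1 on the scaled count scale for genes at a mean TPM of 1 or more; black bars are medians. The 10 microcephaly genes (orange) have a median of 5.33 TPM and ratios within 0.21 log2 units of 0, while the muscle list lies far to the right, at a median of 5.63, and the epidermis list far to the left, at a median of -7.35.

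The libraries were then compared with each other, as TMM-scaled counts per gene to which 1 prior count was added, with 1 library on each side and no replicate check. No member was 25% or more higher in either library than in the other, beside 13.4% of the 15281 genes at a mean TPM of 1 or more. Nor did any pass 1.5-fold or 2-fold, beside 5.9% and 2.91% of those genes, while 4 passed 1.1-fold, beside 38.9%. Ratios of replicate 2 over replicate 1 ran from 0.903 for Mcph1 to 1.15 for Cep152, and 6 of the 10 were above 1, beside 48.6% of those 15281 genes. Cep152, with 777 and 1350 fragments, had a ratio of 1.15, with a 95% counting interval of 1.05 to 1.26. Aspm, with 957 and 1648 fragments, had a ratio of 1.14 (interval 1.05 to 1.24), and Stil, with 739 and 1229, of 1.103 (interval 1.01 to 1.21). Mcph1 had 1409 and 1919 fragments and an interval of 0.843 to 0.968. In 6 of the 10 genes the interval left out 1. The share of all genes with such an interval was not computed, so this count is no result about the members as a set. As far as independent fragments are assumed, these differences exceeded counting error. Their size against the spread between libraries depends on how that spread is estimated. Over the genes that passed a filter on low counts the common coefficient of variation was 19.1%, and without that filter 23.2%. The value fitted at the members' own levels ran from 10.2% to 22.1%. The SD of the log2 scaled counts of the 2 libraries was also taken for each filtered gene. Its median came to 6.09% when put as a percentage. Cycling markers had a median ratio of 1.12, beside 1.06 for the members. Among the 14 markers the lowest ratio was 0.836, for Rrm2, and the highest 1.31, for Bub1b. The part of cell composition in the member ratios was not tested.

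The gene totals hide how the RNA was divided among transcripts. Of the 48 member transcripts 23 reached a TPM of 0.5 in both libraries, beside 59.7% of the transcripts of all detected genes. These were 16 of 24 protein-coding transcripts, 5 of 12 annotated as retained intron and 1 of 7 as targets of nonsense-mediated decay, besides 1 that GENCODE M21 does not list. The share detected in each class over all detected genes was not computed, so the class counts are no result about the members as a set. Wdr62, Cep63 and Cep135 had under 70% of their level on coding transcripts. Over 13506 detected protein-coding genes the median coding share was 98.0%, and the share of those genes under 70% was not computed. Aspm, Cenpj and Cep152 have 1 transcript each in the tables, a coding one, so their share was fixed by the annotation. A retained-intron transcript keeps an intron and is not annotated as coding for protein.

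Wdr62 was the most divided. Its leading entry by TPM was the retained-intron fragment Wdr62-207, 648 nt long, at 2.23 and 1.99 TPM, or 29.7% of the gene. The next by mean was Wdr62-203, a 374-nt retained-intron fragment, at 1.18 and 1.82 TPM or 20.9%. It rested on expected counts of 12.2 and 29.0. In replicate 1 it was below the coding transcripts Wdr62-201, at 1.39 TPM, and Wdr62-204, at 1.27 TPM. The coding transcripts Wdr62-204 and Wdr62-201 took 18.6% and 18.2%. Retained-intron entries made up 54.0% ± 0.0834 of the Wdr62 TPM, but 9.20% of its expected counts, since TPM divides by length and these fragments are short. Coding transcripts held 2.66 and 2.57 TPM, beside 2.43 and 2.63 in Stil.

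Cep63 was led by the coding transcript Cep63-206 at 9.07 and 9.39 TPM, 41.8% of the gene. Cep63-208, a retained-intron fragment of 484 nt, followed at 5.95 and 6.88 TPM or 29.0%. Cep63-207, a retained-intron transcript of 5861 nt, took 11.8%, and the longest coding form, Cep63-201, 11.2%. Retained-intron entries held 41.7% ± 0.0666 of the TPM and 39.1% of the counts, but these like totals joined entries that moved opposite ways. The short Cep63-208 had 3.93% and 4.66% of the counts in replicates 1 and 2, and the long Cep63-207 had 36.1% and 33.2%. A retained-intron share over 40% was found in 5.03% of the 13506 detected protein-coding genes, and a coding share under 60% in 12.9%.

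Cep135 was split between the coding transcripts Cep135-201, at 51.6% and 38.3% in the libraries, and Cep135-202, at 16% and 29.8%, and the retained-intron transcript Cep135-203, at 32.4% and 31.9%. The first of these shares differed between libraries by more than the last, so the division between the coding forms was the least certain. In Nde1, Nde1-201 held 69.7% and Nde1-207, a 746-nt coding fragment, 11%. Mcph1-201 held 76.2% of Mcph1 and Mcph1-202, annotated as a target of nonsense-mediated decay, 8.15%. Cdk5rap2-206, 11847 nt long, held 84.9% and the 711-nt Cdk5rap2-205 held 9.25%. Stil-201 held 96.9%.

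**Figure D3:**
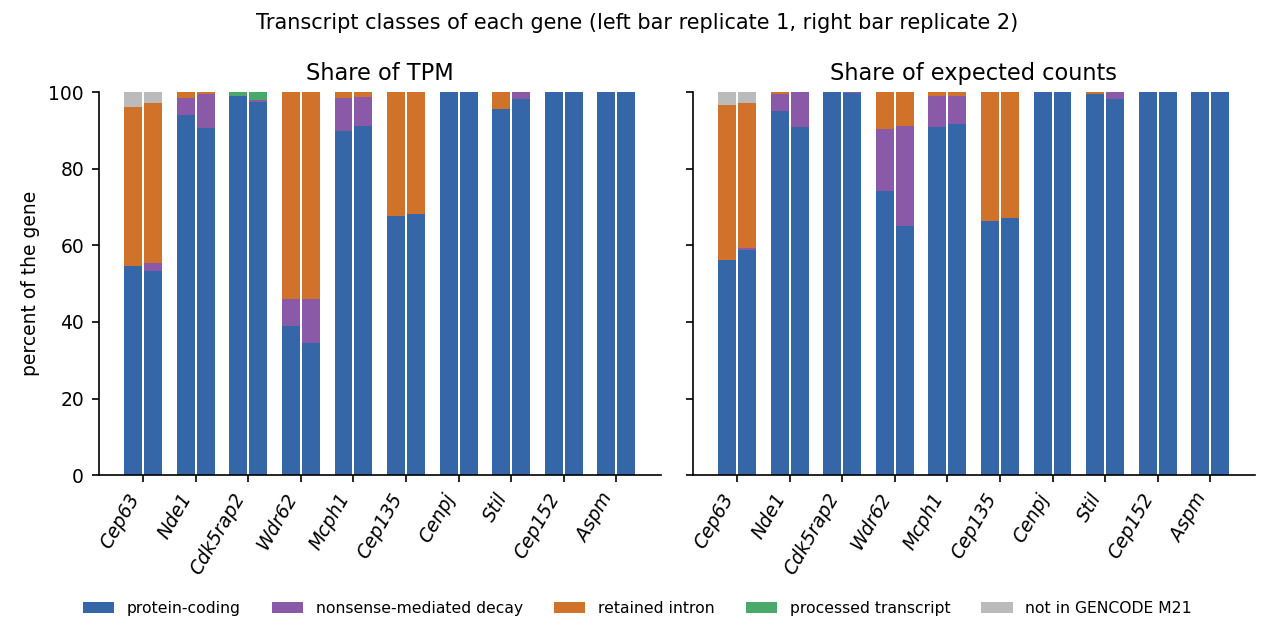
Percent of each gene's TPM (left) and of its expected counts (right) by transcript class, with replicate 1 as the left bar and replicate 2 as the right bar of each pair. Retained-intron entries take 54.0% of the Wdr62 TPM but 9.20% of its counts, and take 41.7% and 39.1% in Cep63.

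With coding transcripts only, a measure chosen after these classes were seen, the order became Nde1 (14.8 ± 0.905 TPM), Cep63 (11.9 ± 0.311), Cdk5rap2 (9.67 ± 0.0424), Mcph1 (5.21 ± 0.233), Cenpj (3.51 ± 0.148), Cep135 (3.32 ± 0.156), Wdr62 (2.62 ± 0.0636), Stil (2.53 ± 0.141), Cep152 (2.52 ± 0.247) and Aspm. Ranges then overlapped for 3 pairs of neighbours, Cenpj with Cep135, Wdr62 with Stil and Stil with Cep152.

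Reads across splice junctions give a measure of spliced RNA that does not depend on how fragments were divided among transcripts. The junction file, on mm9, holds 2 replicate columns that are not tied to a library, called the first and second column here. Of 251 introns annotated for the members by Ensembl release 65, 227 (90.4%) had a read in each column, beside 86.6% for all detected genes. Median reads per intron, over the model with the most exons and both columns summed, ran from 217 in Nde1 (81.5 and 135 in the columns) and 214 in Cep63 to 33 in Cep152 and 21 in Aspm. Between them stood Cdk5rap2 at 112, Mcph1 at 99, Cep135 at 72, Cenpj at 70, Wdr62 at 63.5 and Stil at 37. Wdr62 thus stood at place 7 by junction reads, the same place as by coding TPM, against place 4 by total TPM.

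Junction reads were uneven along some genes. In Aspm the first 9 introns had 8 to 19 reads each and the last 6 had 92 to 172. The ratios that follow used exact junction matches only, so Aspm intron 4, with 14 reads at a shifted junction, counted as unread. On that count the median of its last 9 introns, 96, was 7.46 times that of its first 9, 12, with 1 read added to each. The ratio was 5.17 in the first column and 9.29 in the second. Aspm has 27 introns, and for other genes the same part of the introns was taken. Over 7055 genes with 9 or more introns and a median of 5 or more reads the median ratio was 1.54, 31.7% lay above 2, and 95.3% lay below Aspm. Stil had a ratio of 2.87 and Cdk5rap2 of 2.24. Cep63, Cep135 and Mcph1 were near level, at 0.990, 1.03 and 1.05. The place of Aspm therefore turned with the part counted: over the whole gene it was lowest, at a median of 21, while over the last part its median of 96 lay above those of Stil (85), Cep135 (82.5), Wdr62 (80) and Cep152 (38).

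**Figure D4:**
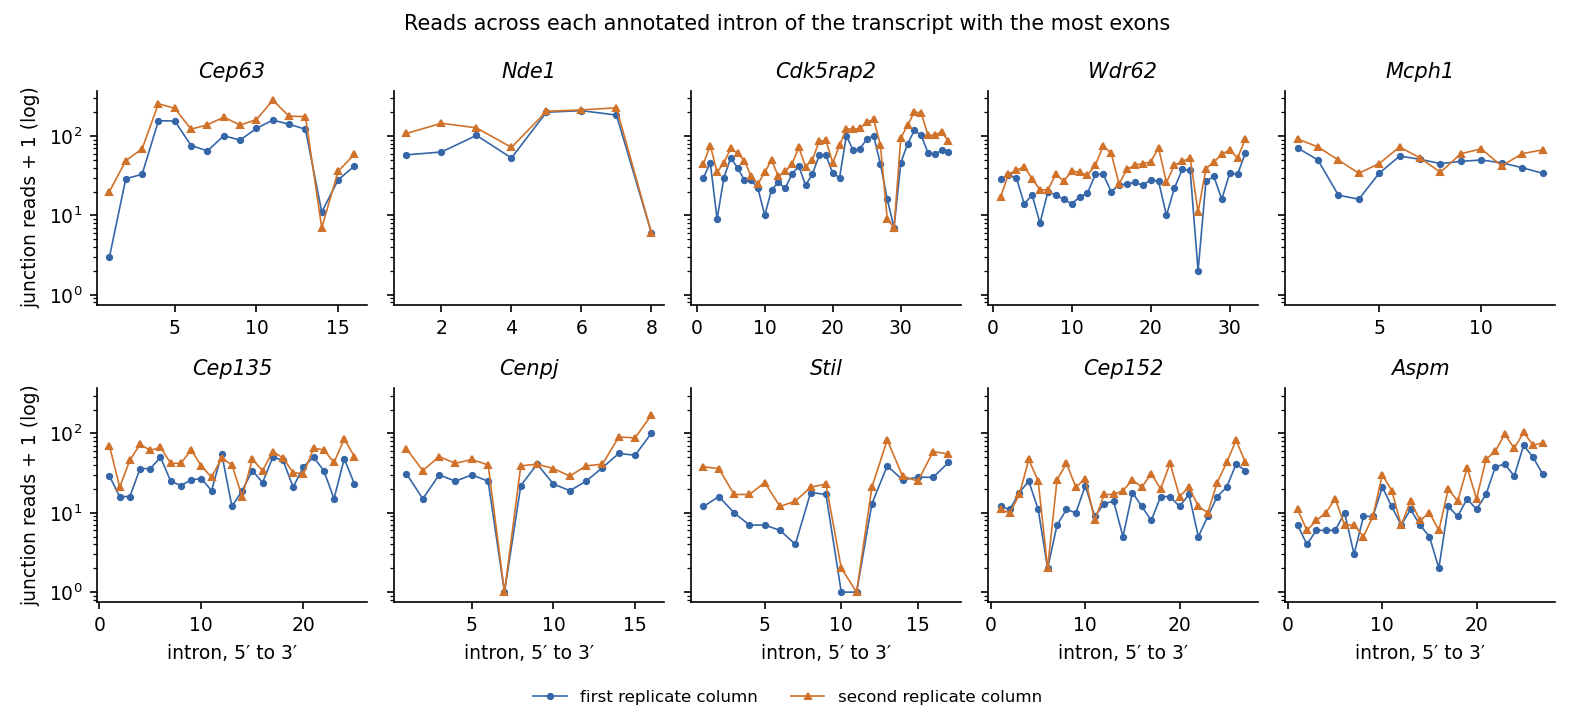
Reads plus 1 (log axis) over each intron, 5′ to 3′, of the model with the most exons, for the first (blue) and second (orange) replicate column. Aspm rises from 8 to 19 reads in its first 9 introns to 92 or more in its last 6. The introns of Cenpj and Stil at the bottom of their panels had 0 reads. The Stil intron is only in the plotted model Stil-204, annotated as a target of nonsense-mediated decay. The junction of the coding Stil-201 over that part had 27 reads.

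Exons that are sometimes left out were searched with the same reads. Inclusion is the mean of the reads into and out of the exon over that mean plus the skipping reads. Of 206 annotated internal exons with 20 or more junction reads, 16 (7.77%) were included at 5% to 95%, beside 5.78% over all detected genes, so such exons were not much more frequent here than in other genes. Intervals are exact 95% binomial intervals of the pooled reads and cover counting error only. Several exons that the text turns on are printed below from GENCODE M21 transcripts on GRCm38, matched through the same transcript and exon, with the exon in capitals, 10 flanking bases of the neighbouring exons in lower case, and the coding strand 5′ to 3′.

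In Cdk5rap2 a 110-nt exon, exon 17 of 37 in Cdk5rap2-206 (chr4:70300566-70300675, minus strand), had 63 reads into it, 81 out of it and 56 that skipped it. Inclusion was 56.3% (interval 47.2% to 65%), at 61.8% and 53.3% in the columns. The skipping junction is in neither the Ensembl 65 models nor GENCODE M21. Since 110 is not a multiple of 3, skipping shifts the frame: reading Cdk5rap2-206 without the exon meets a stop after 616 of its 1822 codons, 2 codons past the new junction and 3451 nt before the last exon junction. A 27-nt exon, exon 5 of 10 in Cdk5rap2-204 (chr4:70246948-70246974), kept the frame and was included at 19.0% (11.4% to 27.7%), with 25 and 12 reads against 79 that skipped it, a skip that is annotated. These exons show a frame-shifting and a frame-keeping choice in the gene.
Cdk5rap2, 110-nt exon: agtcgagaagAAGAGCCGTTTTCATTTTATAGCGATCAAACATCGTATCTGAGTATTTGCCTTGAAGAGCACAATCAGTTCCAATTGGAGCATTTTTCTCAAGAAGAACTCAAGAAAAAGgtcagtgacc
Cdk5rap2, 27-nt exon: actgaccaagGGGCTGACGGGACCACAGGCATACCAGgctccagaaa

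A further Cdk5rap2 exon of 219 nt was included at 86.5% (76.5% to 93.3%). An exon of 71 nt that is not in the models, with 25 reads in, 17 out and 42 past it, was included at 33.3% (21.95% to 46.3%), at 51.5% in the first column and 26.9% in the second, and its search was added after the reads were seen.

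Cep152 and Wdr62 had exons whose loss keeps the frame. In Cep152 a 165-nt exon, exon 23 of 28 (chr2:125571669-125571833, minus strand), had 15 reads in, 17 out and 13 that skipped it, an inclusion of 55.2% (35.7% to 73.6%), at 54.5% and 55.6% in the columns. That skip is in neither annotation and shortens the 1736 codons of Cep152-201 to 1681. In Wdr62 a 66-nt exon, exon 23 of 33 in Wdr62-201 (chr7:30244473-30244538, minus strand), was included at 87.9% (76.7% to 95%), with 36 reads in, 66 out and 7 past it, and its skip is annotated. Both exons are printed as the coding segments that these transcripts can lack.
Cep152, 165-nt exon: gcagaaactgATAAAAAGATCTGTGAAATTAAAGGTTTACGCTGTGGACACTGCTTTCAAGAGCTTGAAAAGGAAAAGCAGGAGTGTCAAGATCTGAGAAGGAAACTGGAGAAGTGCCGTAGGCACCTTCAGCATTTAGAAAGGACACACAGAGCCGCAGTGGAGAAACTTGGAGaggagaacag
Wdr62, 66-nt exon: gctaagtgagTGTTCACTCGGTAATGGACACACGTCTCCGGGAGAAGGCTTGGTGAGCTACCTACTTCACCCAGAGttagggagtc

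In Mcph1 the 238-nt exon before the last was included at 89.2% (81.9% to 94.3%), with 99 reads on each side and 12 past it, and the 115-nt exon 5 at 89.9% (80.2% to 95.8%). The 1128-nt exon 8, the largest of these exons, was included at 94.8%, with 5 skipping reads. Skipping of the 115-nt exon would end the reading frame after 133 of 822 codons. In Aspm the most-read such exon, 88 nt long, was included at 94.9% (82.7% to 99.4%) and rested on 2 skipping reads, both in the second column. The Stil entry in this range, the 519-nt form in the retained-intron transcript Stil-205, is not a measure of that form: its 27 reads in are shared with the coding exon of Stil-201, 4 reads left it, and 1 read skipped it. No annotated exon of Cenpj, Cep135 or Nde1 fell in this range.

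**Figure D5:**
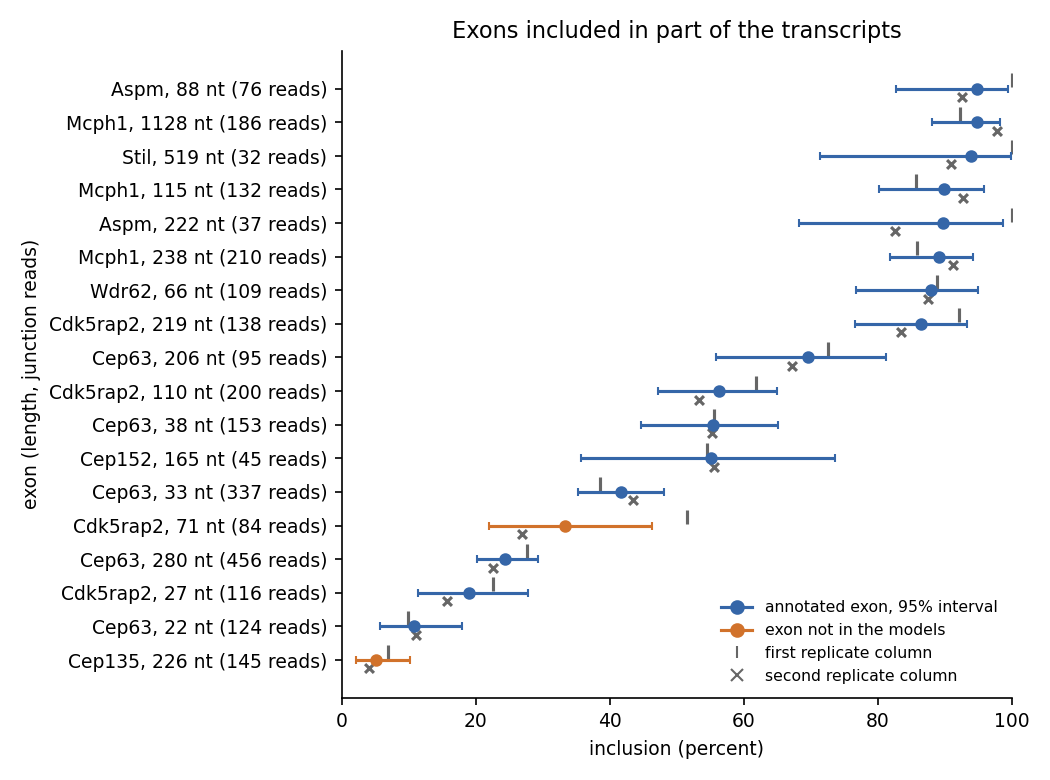
Inclusion in percent of each exon between 5% and 95%, by gene and length, with the exact 95% interval of the pooled reads; blue are annotated exons, orange exons not in the models, and grey marks the 2 replicate columns. The Stil point counts reads shared with a coding exon. The 110-nt exon of Cdk5rap2 at 56.3% and the 165-nt exon of Cep152 at 55.2% lie near the middle, and the intervals of most Mcph1 and Aspm exons lie above 80%.

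Cep63 varied at both ends and held 5 of the 16 exons. Toward the 3′ end, 277 of 311 reads (89.1%, interval 85.1% to 92.3%) from the exon before the variable part went straight to the last exon, 17 went to a 280-nt exon and 16 to a 206-nt exon. Counting all reads that enter it, the 280-nt exon was included at 24.4% (20.2% to 29.3%), at 27.7% and 22.5% in the columns. Of its 80 reads in, 62 came from the 206-nt exon, which itself had 16 reads in. The 24.4% is therefore not a clean share of a path through both exons. The direct path is that of Cep63-206, and the path through both exons that of Cep63-201. The exons together are 486 nt, a multiple of 3, while neither alone is.

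At the 5′ end, 104 of 256 reads (40.6%, interval 34.6% to 46.9%) into the shared early coding exon came from the start used by Cep63-206 and 100 (39.1%) from a donor used by Cep63-201 and Cep63-207. A further 30 (11.7%) came over a junction not in the models. In Nde1, 305 of 325 reads (93.8%, interval 90.7% to 96.2%) from the last shared exon went to the final exon of Nde1-201, and 10 each to those of Nde1-202 and Nde1-203.

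Small shifts of a splice site were sought among junctions that share an end and differ by at most 30 nt at the other, a search added after the data were seen. Such pairs, with 10 or more reads on each side, numbered 6. Shares are of all reads at the shared end. In Cep152 an acceptor 3 nt away from the annotated site took 31 of the reads against 75, or 29.2% (20.8% to 38.9%), with 16 and 15 reads in the columns, a difference of a single codon's length. In Cdk5rap2 an acceptor shifted by 6 nt took 15.1% (8.48% to 24.0%). In Wdr62 an acceptor 15 nt from that of the retained-intron fragment Wdr62-203 had 12 of 145 reads, or 8.28% (4.35% to 14.01%). Of the other reads, 29 went to the fragment's own acceptor and 99 to that of Wdr62-201, Wdr62-204 and Wdr62-205. A Cep63 donor shifted by 4 nt had 56 reads against 440, or 11.2% (8.57% to 14.3%), and a Cep135 acceptor shifted by 4 nt 17.1% (9.43% to 27.5%), and these shifts are not multiples of 3. None of the minor sites was in the Ensembl 65 models. In Cenpj the annotated intron 7 had 0 reads in either column, while a junction that shares 1 end with it and is not in the models had 33, 14 and 19 in the columns.

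The mm9 gene values kept 5 of the 10 places in the order and stood apart for Cdk5rap2. These values, which the files call RPKM, were 16.1 and 14.7 for Cdk5rap2 in the 2 columns, against 1.94 and 1.90 for Nde1, 1.57 and 1.60 for Cep63 and under 1 for the other 7. Over 14096 detected genes the median gene had a TPM 8.06 times its RPKM, and in 1.23% of them the RPKM was above the TPM, Cdk5rap2 included. Of the Cdk5rap2 RPKM, 13.2 and 11.6 were given to the 711-nt transcript Cdk5rap2-205, whose only own intron had 1 junction read. In the mm10 tables the same transcript stood at 1.15 and 0.67 TPM, and Cdk5rap2-206 at 8.18 and 8.55 TPM.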

How the data were processed

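The 10 genes and all gene lists were chosen with earlier results of these data known. Expected counts, TPM, FPKM and percent of each transcript per gene, with the bounds of a TPM interval, were deposited for each library on mm10, with GENCODE M4 as annotation, per the read-me texts deposited with them. No aligner or quantifier is given in the sources used here. Tables on mm9 deposited for the whole series give values called RPKM in the file attributes for 2 replicate columns, junction read counts and an irreproducibility score, and their columns are not tied to a library. The deposited RPKM were used once per gene. Library sizes leave out entries that are not genes (3.62% and 4.01% of the expected counts). GENCODE M21, on the build GRCm38 that mm10 also names, gave symbols, transcript types, positions and, from its transcripts, exon sequences.

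Expected counts were rounded for edgeR 4.0.16 (TMM, filterByExpr, intercept-only common dispersion) and DESeq2 1.42.0 as an alternative, under R 4.3.3; the rest used Python 3.11.15, pandas 2.3.3 and SciPy 1.17.1. No contrast exists, so no p-value is given, and the 2 libraries show only the spread between these samples. A floor of 3 fragments corresponds to 0.0319 and 0.0219 CPM. The edgeR step was tested on simulated data. Junction ends had to match the models exactly, with 1 exception. In the medians over a whole model and the plot along genes, 4 introns took the reads of an unannotated junction with both ends shifted alike. The medians and ratios by part of a gene used exact matches only. Named were all 10 members, of other lists the highest 2 and lowest detected gene, all relatives and complex partners, the 2 leading transcripts of each gene with any other at 10% in both libraries, and the most-read variable exon of each gene; other exons, transcripts and the splice site shifts were named after their values were seen. Trappc14 was not found by symbol and was not analysed here, and the sequence of some exons is not reported here.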

Additional observations from a re-analysis of the deposited data

How the results depend on the processing

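All 10 members were detected at a TPM of 0.5, at an FPKM of 1, on coding transcripts only and without either replicate, 9 at a TPM of 2, but 5 at a TPM of 5 and 3 at an mm9 RPKM of 1. The median member level was 6.34 TPM when rescaled over nuclear genes, 7.61 as a mean and 3.41 on coding transcripts only, and without 1 replicate it was 5.29 to 5.37 TPM. At 1.1-fold, 4 members passed between the libraries; with DESeq2 size factors, a TPM ratio, a prior count of 5, other filters or folds of 1.5 and 2 none did. The spread was 2.23% by gene-wise dispersions in DESeq2 and 23.2% without a filter on low counts. As the median over genes of the SD of the log2 scaled counts of the 2 libraries it was 6.09%. The cause of these differences was not tested. Introns read ran from 208 to 235 of 251. Variable exons numbered 35 at 1% to 99% and 12 to 18 otherwise. Transcripts detected numbered 19 to 28. Of the 10 places in the order, 5 changed on coding transcripts, 5 by mm9 RPKM, 6 by junction reads, 7 without length correction (Aspm from 10 to 6) and 0 by FPKM. No paired analysis was possible because there is 1 group. Counting intervals cover reads only. Skipping reads were few for the exons of Cep152 (13), Wdr62 (7), Aspm (2) and Stil (1). They were also few for those of Mcph1 (5, 7 and 12) and for the 219-nt exon of Cdk5rap2 (10).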
